A study of Homo sapiens with 5 samples.

Results

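The ZNF genes make up much of the human zinc finger family, and those expressed in HEK293T cells were followed across 5 RNA libraries. A gene was included when its symbol was ZNF followed by digits alone and its level in the pUC19 library was at least 5 TPM, a read count divided by gene length and scaled to the same sum in every library. This gave 293 of the 465 ZNF genes in the deposited tables, out of 19716 genes in all and 10957 genes at or above the same level. The genes were thus selected on their pUC19 level, so each comparison with pUC19 is given as a description without a test, and tests were restricted to the fusion libraries.

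HEK293T cells derive from human embryonic kidney and contain the large T antigen of SV40. In 4 groups the cells received 5 sgRNAs for the uPA gene (PLAU) together with dCas9-BFP fused to 1 of 4 partners, namely DNMT1, DNMT3A, DNMT3B or EGFP. dCas9 is a Cas9 that binds DNA at its guide without cutting it, and BFP is a blue fluorescent protein used for sorting. The DNMT parts are catalytic domains only. The whole DNMT1 enzyme maintains DNA methylation, DNMT3A and DNMT3B set it de novo, and EGFP has no such activity. With these guides the authors found uPA promoter methylation raised by the DNMT3A and DNMT3B fusions. They found no such rise with the DNMT1 or the EGFP fusion. The control received pUC19 plasmid. All groups had 1 ug of plasmid and were harvested after 48 h. The labels describe a sort for BFP in all groups, although pUC19 carries no BFP gene. Each group is 1 library, so no replicate error exists within a group, and the libraries held 26246 to 36143 units of 1000 counted reads. The kidney regulator PAX2 was present in all 5 libraries at 6.08 to 7.72 TPM, and so were the kidney regulators EYA1, from 3.39 TPM with DNMT1 to 8.46 TPM with DNMT3A, and LHX1 at 3.38 to 5.25 TPM. Of the markers of other cells, the leukocyte gene PTPRC stayed at or below 0.219 TPM, the hepatocyte gene ALB at or below 0.430 TPM and the collagen gene COL3A1 at or below 0.806 TPM, whereas the collagen gene COL1A1 ran from 3.87 TPM with DNMT3A to 7.97 TPM with pUC19. The part of these differences in the results was not tested. In bulk RNA, fewer cells expressing a gene and less RNA per cell cannot be told apart.

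Most ZNF proteins carry an array of C2H2 zinc fingers, each of which contacts a few DNA bases, and many also carry a KRAB domain. KRAB binds the co-repressor TRIM28 (KAP1), which brings in the histone methyltransferase SETDB1 and HP1 proteins, and through them silences transposable elements and other targets. These genes arose by repeated duplication and sit in clusters, largely on chromosome 19, and many begin in a CpG-rich promoter. Of the 293 genes, 169 encoded a KRAB domain and 122 did not, and 2 could not be classified. The number of fingers ran from 0 to 36, with a median of 11 in the KRAB proteins and 8 in the others. Of the 292 genes with a position, 119 lay on chromosome 19 (40.6% of the 293 genes, against 6.28% of all expressed genes), 25 on chromosome 7 and 24 on chromosome 16.

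The start regions of 4 of these genes are printed as examples of transcripts that differed between the fusions. CpG dinucleotides, the substrate of DNA methyltransferases, are dense in these regions. Each is the 250 bases before the RefSeq start on GRCh38.p14, read 5′ to 3′ along the gene, with every CpG in capitals. ZNF503 (chr10:75401917-75402166, minus strand), ZNF324 (chr19:58466830-58467079, plus strand) and ZNF282 (chr7:149195296-149195545, plus strand) were higher with DNMT3A and DNMT3B, and ZNF664 (chr12:123972965-123973214, plus strand) was lower.
ZNF503: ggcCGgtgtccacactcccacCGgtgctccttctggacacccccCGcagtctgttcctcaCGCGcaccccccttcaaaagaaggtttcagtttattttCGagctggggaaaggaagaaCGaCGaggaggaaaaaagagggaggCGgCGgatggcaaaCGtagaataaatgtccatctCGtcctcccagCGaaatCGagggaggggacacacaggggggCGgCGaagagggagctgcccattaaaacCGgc
ZNF324: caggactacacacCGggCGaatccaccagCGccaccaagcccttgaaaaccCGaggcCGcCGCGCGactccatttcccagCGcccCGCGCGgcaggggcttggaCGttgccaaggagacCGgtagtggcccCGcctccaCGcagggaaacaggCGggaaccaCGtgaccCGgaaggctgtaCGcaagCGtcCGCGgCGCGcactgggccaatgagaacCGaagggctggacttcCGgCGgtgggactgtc
ZNF282: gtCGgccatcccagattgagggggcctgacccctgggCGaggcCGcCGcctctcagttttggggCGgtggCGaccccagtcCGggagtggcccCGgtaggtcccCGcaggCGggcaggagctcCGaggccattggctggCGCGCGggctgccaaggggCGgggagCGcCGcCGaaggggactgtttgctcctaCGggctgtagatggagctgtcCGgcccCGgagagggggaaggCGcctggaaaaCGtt
ZNF664: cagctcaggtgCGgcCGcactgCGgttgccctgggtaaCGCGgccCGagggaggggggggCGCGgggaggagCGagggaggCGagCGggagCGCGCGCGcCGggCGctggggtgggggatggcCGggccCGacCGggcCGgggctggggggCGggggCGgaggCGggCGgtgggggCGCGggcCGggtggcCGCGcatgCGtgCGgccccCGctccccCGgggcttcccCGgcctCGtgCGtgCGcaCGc
They hold 17, 28, 23 and 39 CpG in that order. The counts of these 4 picked genes do not stand for those of the other genes. DNA methylation at these starts was not analysed here.

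The main question was whether the ZNF genes differed between cells that received a de novo methyltransferase domain and cells that received DNMT1 or EGFP. In edgeR's quasi-likelihood test of the DNMT3A and DNMT3B libraries against the DNMT1 and EGFP libraries, 57 of the 293 genes were higher (19.5%) and 5 were lower (1.71%) at a Benjamini-Hochberg adjusted p-value under 0.05. Over all 15332 genes tested the shares were 6.90% and 4.15%. Over all expressed genes, meaning those with 5 TPM or more in pUC19, they were 8.42% and 4.86%. In total 62 ZNF genes (21.2%) were called in either direction, against 11.0% of all genes and 13.3% of expressed genes. The ZNF transcripts therefore leaned to one side. Their median log2 fold change was 0.23, with the middle of the distribution between -0.015 and 0.54, whereas the median over all genes tested was -0.013 and that over expressed genes 0.020. The fold change was above 0 for 219 genes and below 0 for 74. Of the genes called higher, 17 differed by at least 2-fold, and 0 of those called lower did. The gap inside the DNMT1 and EGFP arm was larger than the lean. The ZNF median log2 ratio of DNMT1 over EGFP was -0.36 (-0.14 in expressed genes). Set against EGFP alone, the ZNF medians were 0.17 (DNMT3A) and 0.065 (DNMT3B). The median fold change between the arms was 0.12 without the DNMT1 library and 0.34 without the EGFP library. The part of the lean that came from the DNMT1 library was not tested.

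The libraries of an arm are different constructs and not replicates, so these p-values measure the spread between constructs. Without the DNMT3A library 3 ZNF genes were called, without DNMT3B 7, without DNMT1 94 and without EGFP 119, which is 1.02%, 2.39%, 32.1% and 40.6% of those tested. Of all genes, 0.114%, 0.336%, 22.5% and 24.7% were called in the same fits. The number of calls thus moved with the left-out library for all genes. The median log2 fold change of the ZNF genes was 0.12 without DNMT1, 0.16 without DNMT3A, 0.29 without DNMT3B and 0.34 without EGFP. Of the 24 genes that were named by rule and called, 21 lost the call without DNMT3A and 18 without DNMT3B, with no change of direction. In TPM, DNMT3A and DNMT3B both lay above DNMT1 and EGFP for 145 ZNF genes (49.5%), against 37.6% of expressed genes, and both lay below for 15 (5.12%), against 22.2%.

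ZNF503 and ZNF324 changed most. ZNF503 (chr10:77157588-77161522, GRCh37, as for all gene positions from here on), a transcriptional co-repressor of the NET family, was at 40.8 TPM with DNMT1, 40.5 with EGFP, 138.1 with DNMT3A and 126.2 with DNMT3B, and at 33.2 with pUC19. The groups did not overlap, and the log2 fold change was 1.64 ± 0.13 (SE; edgeR adjusted p = 0.00128). ZNF324 (chr19:58978423-58986803), a KRAB gene at the far end of chromosome 19, was at 11.6 and 11.2 TPM with DNMT1 and EGFP, at 39.6 and 34.4 TPM with DNMT3A and DNMT3B, and at 10.2 TPM with pUC19. Its log2 fold change was 1.64 ± 0.15, and 24.4% of its 31-base words also occur in another gene, so its level under unique mapping is less certain. ZNF503, ZNF324 and ZNF335 are the 3 genes still called when the DNMT3A library was left out.

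Several further genes followed the same order, with DNMT1, EGFP and pUC19 low and both DNMT3 libraries high. The KRAB gene ZNF707 (chr8:144766622-144796068) went from 15.7 and 16.4 TPM (DNMT1, EGFP) to 46.2 and 42.8 TPM (DNMT3A, DNMT3B), with pUC19 lowest at 9.15 TPM. The KRAB gene ZNF764 (chr16:30565085-30569695) went from 23.4 and 24.2 to 61.2 and 59.7 TPM, with pUC19 at 16.5 TPM. ZNF282 (chr7:148892638-148923329), a KRAB protein first described as binding a retroviral promoter element, was the most abundant of this set, at 85.3 and 97.1 against 203.9 and 200.02 TPM, with pUC19 at 70.6 TPM. Their log2 fold changes were 1.42, 1.29 and 1.10. In each of them the lower DNMT3 library stood above the highest of the other 3.

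Genes without KRAB took part as well. ZNF335 (chr20:44577299-44600842), a subunit of histone methyltransferase complexes that is mutated in inherited microcephaly, was at 23.3 TPM with DNMT1, 32.5 with EGFP, 67.5 with DNMT3A, 81.8 with DNMT3B and 23.9 with pUC19. ZNF319 (chr16:58028580-58034576) was at 5.28, 4.93, 13.4, 15.8 and 8.22 TPM in the same order, so that here pUC19 lay between the arms. ZNF408 (chr11:46722580-46727462), known from inherited retinal disease, was at 21.7, 21.5, 47.0, 53.6 and 15.9 TPM. The log2 fold changes were 1.37 for ZNF335, 1.46 for ZNF319 and 1.16 for ZNF408, with edgeR adjusted p-values of 0.0036, 0.00392 and 0.00441.

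The 5 genes called lower were each at their lowest with DNMT3A or DNMT3B. ZNF664 (chr12:124456392-124499986), the second most abundant ZNF gene in pUC19, was at 168.7 TPM with DNMT1, 217.5 with EGFP, 114.8 with DNMT3A, 118.3 with DNMT3B and 164.6 with pUC19 (log2 fold change -0.78 ± 0.12, edgeR adjusted p = 0.00828). ZNF106 (chr15:42705021-42783339), an RNA-binding zinc finger protein, was at 23.6, 32.0, 16.9, 19.3 and 25.3 TPM in the same order. ZNF704 (chr8:81540686-81787016) was at 6.42, 9.68, 4.11, 5.04 and 9.61 TPM. ZNF561 (chr19:9715356-9731912), the single KRAB gene among the 5, was at 11.1, 15.3, 8.34, 7.93 and 24.2 TPM. ZNF260 (chr19:37001589-37019173), a partner of GATA4 in heart muscle, was at 5.68, 8.15, 4.26, 3.93 and 11.7 TPM. In ZNF561 and ZNF260 the pUC19 library was the highest of all 5, and 19.9% of the 31-base words of ZNF561 occur in another gene. In all 5 the DNMT1 value fell between that of EGFP and those of the DNMT3 libraries.

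**Figure D1:**
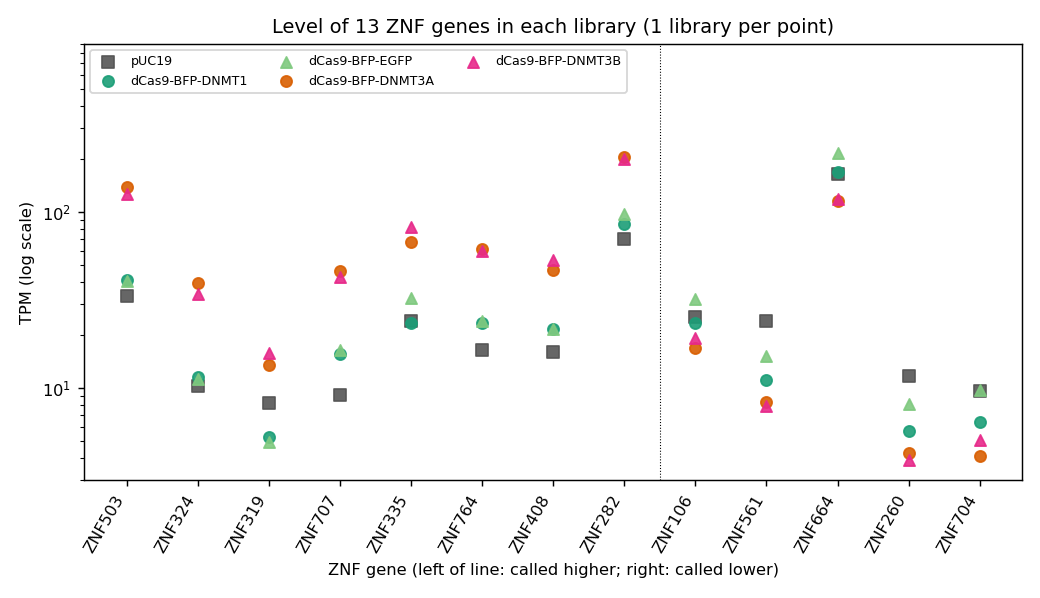
Level in TPM (y axis, log scale) of the 8 genes with the smallest p-values among those called higher (left of the dotted line) and of the 5 called lower (right), 1 point per library. On the left both DNMT3 libraries lie above the other 3, as for ZNF503 at 138.1 and 126.2 against 33.2 to 40.8 TPM, and on the right they lie below, as for ZNF664 at 114.8 and 118.3 against 164.6 to 217.5 TPM.

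The lean was found with and without KRAB. Of the 169 KRAB genes 30 were higher (17.8%) and 1 lower, with a median log2 fold change of 0.19, and of the 122 genes without KRAB 26 were higher (21.3%) and 4 lower, with a median of 0.24. The difference between these classes was not tested. Of 6 listed ZNF repressors with known targets, 3 were expressed at 5 TPM or more. ZNF274, one of the 2 genes that could not be classified for KRAB, which brings SETDB1 to the ends of other ZNF genes, was at 21.8 and 27.6 TPM with DNMT1 and EGFP and at 47.2 and 46.6 TPM with DNMT3A and DNMT3B (log2 fold change 0.88 ± 0.14, edgeR adjusted p = 0.00847). ZNF202, a repressor of lipid metabolism genes, was at 7.91 and 9.28 against 14.8 and 14.5 TPM (0.72 ± 0.15, edgeR adjusted p = 0.0204). ZNF445, which protects imprinted methylation, was at 16.9 and 21.2 against 17.6 and 18.4 TPM and was not called. ZNF10, ZNF91 and ZNF93 were under the 5 TPM floor, at 3.52, 1.89 and 0.651 TPM in pUC19.

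The partners of KRAB were counted as a list of their own. Of 19 listed co-repressor genes 2 were higher and 1 was lower (15.8% called, near the 13.3% of expressed genes). TRIM28, the direct partner, was at 571 TPM with DNMT1, 844 with EGFP, 836 with DNMT3A, 833 with DNMT3B and 633 with pUC19 and was not called (log2 fold change 0.20, edgeR adjusted p = 0.438). SETDB1 was higher (48.9 and 59.4 against 78.1 and 75.1 TPM, log2 fold change 0.45), as was the histone chaperone DAXX (116 and 134 against 180 and 197 TPM, 0.54). CBX5, which encodes HP1 alpha, was lower, with a log2 fold change of -1.36. CHD4 (log2 fold change -0.42, edgeR adjusted p = 0.0533) and ATRX (0.56, edgeR adjusted p = 0.0612) were not called.

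The listed ZNF genes with known roles outside the KRAB class were few, and their shares were not tested. Of 7 RNA and ribosome factors 2 were higher (28.6%, against 19.5% of all 293 genes and 8.42% of expressed genes). ZNF622, a factor of large ribosomal subunit maturation, was at 36.1 and 38.2 TPM with DNMT1 and EGFP and at 75.6 and 60.8 TPM with DNMT3A and DNMT3B (log2 fold change 0.82), and the double-stranded RNA binder ZNF346 was at 38.4 and 52.8 against 70.8 and 70.2 TPM (0.58). The other 5 were not called by edgeR. ZNF598, the ubiquitin ligase that senses collided ribosomes, had a log2 fold change of 0.37 and was called by DESeq2 (adjusted p = 0.0430). The log2 fold change was 0.34 for ZNF593, 0.13 for the splicing factor ZNF326, 0.077 for the spindle and splicing protein ZNF207 and 0.037 for ZNF638. Of 8 DNA-binding regulators 2 were higher (25%). They were ZNF410, the activator of CHD4 (54.5 and 61.1 against 95.6 and 84.1 TPM, 0.58), and ZNF131 (26.5 and 22.3 against 42.2 and 37.1 TPM, 0.64). In ZNF131 the pUC19 level, 41.1 TPM, was as high as that of the DNMT3 libraries. The regulators ZNF143, ZNF148, ZNF217, ZNF24, ZNF281 and ZNF384 were not called by edgeR, with log2 fold changes from -0.22 for ZNF24 to 0.39 for ZNF384. DESeq2 called ZNF384 higher (adjusted p = 0.0386). None of the 3 genes that work with the chromatin reader ZMYND8 (ZNF532, ZNF592, ZNF687) was called by edgeR or DESeq2, and 2 of them had an unadjusted p under 0.05. Both NET genes were higher: ZNF703 stood at 58.5 TPM with DNMT1, 32.8 with EGFP, 98.1 with DNMT3A and 109.2 with DNMT3B (1.11 ± 0.26), but was not called by DESeq2.

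Gene clusters differed in how many members were called. Clusters were runs of ZNF genes of any level with gaps of at most 500 kb, kept where they held at least 5 of the 293 genes. There were 13 of them, with 138 of the 293 genes. Cluster positions and counts cover these genes only. The cluster at chr7:148766733-149470677 had 7 of 9 genes higher and a median log2 fold change of 0.80, and 8 of its 9 genes encode KRAB. ZNF212 in it was at 26.3 and 40.3 TPM with DNMT1 and EGFP and at 72.5 and 68.5 TPM with DNMT3A and DNMT3B, and ZNF398 at 32.4 and 50.3 against 79.2 and 89.1 TPM. ZNF282, ZNF746, ZNF777, ZNF783 and ZNF786 were the other genes called there, whereas ZNF425 (log2 fold change -0.41) and ZNF467 (0.18) were not. The genes of this cluster were named after their values were seen.

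On chromosome 16 the cluster at chr16:30389427-31928678 had 6 of 11 genes higher, and all 11 fold changes were above 0, with a median of 0.48. The highest level there was that of ZNF768, at 189.1 and 190.5 TPM with DNMT1 and EGFP and 261.7 and 278.1 TPM with DNMT3A and DNMT3B. The large clusters of chromosome 19 gave different counts. At chr19:52074536-53965116 edgeR and DESeq2 both called 0 of 18 genes (median 0.10), and 1 had an unadjusted p under 0.05. At chr19:36705504-38210662 both tools called 0 of 15 genes higher (2 at an unadjusted p under 0.05) and 1, ZNF260, lower (median 0.056). At the end of the chromosome, chr19:57702868-58992597, 5 of 25 were higher (median 0.34). The cluster at chr7:63767837-64866049 was the single one with a median below 0 (-0.30), with 5 of its 6 KRAB genes below 0. There edgeR and DESeq2 called 0 genes, and 0 had an unadjusted p under 0.05. Over all of chromosome 19, 16 of 119 genes were higher (13.4%) and 2 lower, against 41 of 173 (23.7%) and 3 elsewhere. Differences between clusters were not tested.

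The clusters also differed in base composition: the GC content of the transcripts had a median of 57.9% in the first of the chromosome 7 clusters and 34.98% in the second. When the ZNF genes were split into 4 equal bins of GC content, 0 of 73 genes in the lowest bin (33.1 to 41.1% GC) were higher, then 5, 14 and 38 of 73 in the next 3 bins. In the lowest bin 5 genes were higher at an unadjusted p under 0.05, and DESeq2 called 2 higher. The last, from 53.6 to 70.9% GC, thus had 52.1% called higher and a median log2 fold change of 0.63. All expressed genes in the same GC ranges went from 2.81% to 14.5%, with a median of 0.089 in the highest range. Across genes, Spearman's rho between GC content and log2 fold change was 0.50 over 292 ZNF genes and 0.19 over 10054 expressed genes. Genes share libraries and are not independent, and these correlations are descriptions.

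GC content also moved with single libraries. For the ZNF genes, rho between GC content and the ratio to pUC19 was 0.064 for EGFP, against 0.42 for DNMT1 and 0.48 and 0.49 for DNMT3A and DNMT3B. For expressed genes it was 0.050, 0.33, 0.30 and 0.25 in the same order. Within 1 arm, rho between GC content and the ratio of DNMT1 to EGFP was 0.43 for the ZNF genes and 0.36 for expressed genes. With each library's trend on GC content and length taken out, 66 ZNF genes were called (22.6%, against 14.3% of all genes in that fit), of which 55 were among the original 62, and the median log2 fold change was 0.23. The genes called higher in the 4 bins were then 2, 11, 16 and 31, so the highest bin had 42.5% against 10.7% of expressed genes in that GC range. ZNF768 was no longer called in that fit. Transcript length (rho = -0.21) and the number of fingers (rho = -0.14) went with the fold change less closely.

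Promoter letters gave a further description. RefSeq promoters of 300 bases (250 before and 50 after the start, GRCh38.p14) were matched for 253 of the 293 genes, and both strands were searched. The ETS letters CCGGAAG were present in 41.1% of ZNF promoters, against 21.1% for expressed genes and 10.7% for all promoters. The letters CCAAT were found in 45.5% (53.7% of KRAB genes) against 37.6% and 35.7%, and the GC box GGGCGG in 65.6% against 73.3% and 44.6%. Between ZNF genes called higher and those not called, the ETS share was 42.9% and 41.5%, and the GC box share 79.6% and 63.0%. The CCAAT share was 36.7% and 48.0%, and the YY1 letters AAGATGG were in 1 of 49 promoters (2.04%) and 19 of 200 (9.50%). These differences were not tested. The median number of CpG was 26 and 23, and it was 20.5 over the 4 matched promoters of genes called lower. Over all ZNF promoters it was 23, against 27 for expressed genes and 14 for all promoters. In the 4 sequences printed above, ZNF503 and ZNF664 hold the GC box, ZNF282 holds the GC box and CCAAT, and ZNF324 holds the ETS letters and CCAAT. Over all ZNF promoters the letters of YY1, a cyclic AMP response element (TGACGTCA) and the NRF1 palindrome were present in 8.30%, 4.74% and 2.77%, against 8.14%, 3.64% and 2.62% for expressed genes.

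Pairs of fusion libraries were then compared gene by gene with an exact conditional binomial test. A gene was called when its adjusted p-value did not exceed 0.001 and it differed by 2-fold or more. These tests compare 2 libraries and not conditions. DNMT1 against DNMT3A gave 44 ZNF genes, all higher in DNMT3A, whereas of all genes 2.59% were higher in DNMT3A and 1.00% in DNMT1. DNMT1 against DNMT3B gave 31, all higher in DNMT3B, with 2.68% and 0.863% of all genes. DNMT3A against EGFP gave 19 higher in DNMT3A and 2 higher in EGFP (2.02% and 1.95%), and DNMT3B against EGFP 16 and 1 (2.09% and 1.42%). These shares are of all genes tested at any level, 18655 to 18808 per pair, and not of expressed genes alone. With TMM-scaled values DNMT1 against DNMT3A gave 31 ZNF genes in place of 44, and DNMT1 against DNMT3B 25 in place of 31. DNMT3A against EGFP then gave 24 in place of 21, and DNMT3B against EGFP 18 in place of 17. The median log2 ratio of the ZNF genes was -0.50 for DNMT1 over DNMT3A and -0.42 for DNMT1 over DNMT3B (-0.14 and -0.15 for expressed genes). For DNMT3A over EGFP it was 0.17 and for DNMT3B over EGFP 0.065 (0.014 and 0.018 for expressed genes). The comparisons share libraries, so their counts and medians are not independent. With an assumed coefficient of variation of 0.2 in place of read sampling alone, none of the 293 genes was called in any pair.

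Within the arms the ZNF genes were closer for DNMT3A and DNMT3B than for DNMT1 and EGFP. Between DNMT3A and DNMT3B none of the 293 genes was called (0.215% of all genes), and the log2 ratio had a median of 0.082 and an SD of 0.22 over genes (-0.014 and 0.28 for expressed genes). Between DNMT1 and EGFP 8 were called, 2 higher in DNMT1 and 6 higher in EGFP (0.473% and 0.966% of all genes), the median was -0.36 and the SD 0.36 (-0.14 and 0.37 for expressed genes). The expressed genes thus showed the same order of the SDs. In TPM 245 of the 293 genes were lower with DNMT1 than with EGFP (83.6%), against 68.4% of expressed genes. With TMM scaling the numbers were 217 (74.1%) and 49.7%. In all 4 pairs that cross the arms 0.712% of the expressed genes were called, and so were 11 of the 293 ZNF genes. They were the 8 genes plotted as called higher together with ZNF444 (28.5 and 26.6 TPM with DNMT1 and EGFP, 59.9 and 63.9 TPM with DNMT3A and DNMT3B), ZNF579 (11.6 and 9.54 against 26.8 and 23.7 TPM) and ZNF710 (16.9 and 15.1 against 35.9 and 45.1 TPM). The edgeR log2 fold changes of these last genes were 1.11, 1.19 and 1.28.

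Against pUC19, which chose the genes, levels are given without a test. The summed level of the 293 genes was 6004 TPM with pUC19, 5450 with DNMT1, 6617 with EGFP, 8259 with DNMT3A and 7923 with DNMT3B. The median log2 ratio to pUC19 was -0.22 with DNMT1, 0.13 with EGFP, 0.26 with DNMT3A and 0.18 with DNMT3B. For all genes of at least 5 TPM in pUC19, chosen in the same way, it was -0.16, -0.026, -0.022 and -0.021. With TMM scaling the DNMT1 medians moved by 0.13, to -0.095 for the ZNF genes and -0.032 for expressed genes. With DNMT3A 43 ZNF genes were at least 2-fold higher and 8 at least 2-fold lower, where expressed genes gave 4.55% and 5.23%, and with DNMT3B 33 were higher and 9 lower, where they gave 4.66% and 4.59%. DNMT1 gave 1 higher and 15 lower (0.748% and 4.29% of expressed genes), and EGFP 6 and 4 (2.14% and 3.58%). Of the 57 genes called higher between the arms, 55 were above pUC19 in both DNMT3 libraries, and all 57 were within 2-fold of pUC19 with both DNMT1 and EGFP. These 57 were selected for DNMT3 values above those of DNMT1 and EGFP. Few of the 293 genes were 2-fold from pUC19 with DNMT1 (16) or EGFP (10). The 2 counts thus follow in part from the selection and are no separate support.

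**Figure D2:**
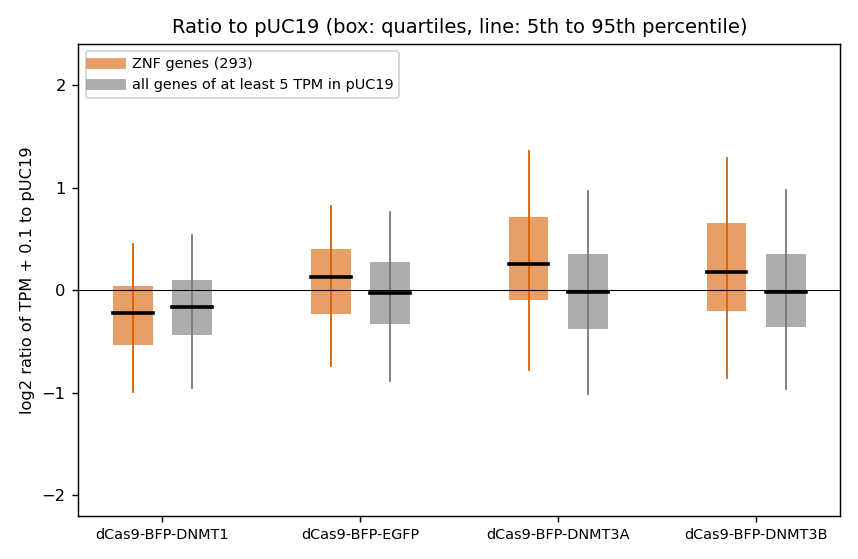
Log2 ratio of TPM + 0.1 to pUC19 (y axis) in each fusion library (x axis) for the 293 ZNF genes (orange) and for all genes of at least 5 TPM in pUC19 (grey); black bars are medians, boxes quartiles and lines the 5th to 95th percentile over genes. The ZNF median is below 0 with DNMT1 (-0.22) and above 0 with EGFP (0.13), DNMT3A (0.26) and DNMT3B (0.18).

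The sign of the ratio to pUC19 differed between fusions for most ZNF genes. Above pUC19 in all 4 were 71 (24.2%, against 22.8% of expressed genes), and below it in all 4 were 63 (21.5%, against 35.2%). At 2-fold, 1 gene was above and 2 were below in all 4 (0.246% and 1.58% of expressed genes). ZNF219 was at 7.92 TPM with pUC19 and at 19.9, 16.9, 24.5 and 19.4 TPM with DNMT1, EGFP, DNMT3A and DNMT3B. The KRAB genes ZNF222 (5.38 TPM with pUC19, lowest fusion 10) and ZNF226 (9.28 TPM with pUC19, lowest fusion 15.98) came next with ZNF707. In the other direction the KRAB gene ZNF480 was at 15.02 TPM with pUC19 and at 5.21, 6.93, 5.93 and 4.74 TPM in the fusions, and ZNF583 at 6.68 TPM and between 2.34 and 3.28 TPM. ZNF782 was at 7.27 TPM with pUC19 and at most 3.86 TPM with a fusion, and ZNF248 at 5.94 and at most 3.24 TPM. Apart from ZNF707 none of these genes was called between the arms. The ZNF genes and the expressed genes beside them were selected on the same library.

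Of the 5 ZNF genes with the highest pUC19 level, ZNF207, ZNF146 and ZNF511 were not called. Of all 293 genes 21.2% were called, and of the 183 with 10 TPM or more in pUC19 28.4%. ZNF207 was at 268.3 TPM with pUC19 and at 180.9, 200.8, 206.8 and 211.0 TPM with DNMT1, EGFP, DNMT3A and DNMT3B. ZNF146 (OZF), which consists of little but zinc fingers, was at 107.4 TPM and at 70.8, 79.3, 97.7 and 95.4 TPM, and ZNF511 at 100.7 TPM and at 111.1, 98.9, 120.4 and 124.0 TPM. Of the 5 highest, ZNF664 was lower and ZNF768 higher between the arms. Just above the 5 TPM floor lay ZNF160 (5.12 TPM) and ZNF449 (5.13 TPM), and just below it ZNF471 (4.98 TPM) and ZNF517 (4.94 TPM). All 293 genes had reads in every library, with a lowest count of 56 and a median of 723 reads in pUC19.

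Related zinc finger families at the same floor were measured alongside. Of 30 ZBTB genes 4 were higher (13.3%) and 0 lower, with a median log2 fold change of 0.17. Of 17 ZSCAN and ZKSCAN genes 6 were higher (35.3%, median 0.36), and of 10 ZFP genes 1 was (10%, median 0.32). Of 27 ZNF genes with a letter after the digits 2 were higher (7.41%, median -0.035). The 293 ZNF genes gave 19.5% and 0.23, and expressed genes 8.42% and 0.020. The lean was thus not particular to the ZNF genes, as ZSCAN and ZKSCAN genes had both values above theirs. In these families edgeR and DESeq2 called 0 genes lower, and 1, 2, 0 and 1 genes were lower at an unadjusted p under 0.05. Of the 172 ZNF genes under the floor 138 could be tested, and 4 of them were higher and 0 lower with edgeR and with DESeq2 (11 and 9 at an unadjusted p under 0.05), with a median of -0.11. The differences between families were not tested.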

How the data were processed

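Poly(A) RNA of HEK293T cells was sequenced on an Ion Proton, with 1 library for each of 5 groups, and groups were taken from the sample titles. The authors filtered the reads, aligned them with tmap to hg19 (GRCh37) RefSeq RNA and kept uniquely mapped reads; the tmap version is not given in the sources used here. Unique mapping lowers the level of genes with near-identical copies, so the share of each gene's 31-base words found in other genes was computed; it exceeded 20% in 22 of the 293 genes, 2 of them called. The authors gave a raw count of reads for each gene. The deposited TPM is that count divided by gene length and scaled per library. Genes missing from a table were set to 0, and the deposited coverage column was not used.

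The 4 fusion libraries were compared with edgeR 4.0.16 (R 4.3.3; filterByExpr, TMM, quasi-likelihood F-test, Benjamini-Hochberg over 15332 genes, called under an adjusted p-value of 0.05; common coefficient of variation 0.135). Pairs of libraries were compared by an exact conditional binomial test (two-sided), and fold changes of pairs are ratios of TPM + 0.1, which understate changes of low genes. Depth was 26246 to 36143 units of 1000 reads, 3 reads being 0.083 to 0.114 RPM; intervals for read sampling would not cover spread between transfections. Positions, GC content and coding sequences came from GENCODE release 44 on GRCh37 and promoters from RefSeq on GRCh38.p14. GC content was known for 292 ZNF genes and 91.9% of expressed genes. KRAB domains had been planned as a fixed letter pattern in RefSeq proteins; protein tables were not used here, and that pattern found 110 genes in the translated GENCODE coding sequences, so a profile built from its matches (pyhmmer 0.12.3) was used and found 169. Fingers were counted by the pattern of paired cysteines and histidines.

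Genes were named by rule: the 8 smallest p-values per direction, the 5 highest levels in pUC19, the 4 most consistent ratios to pUC19 per direction, the 2 genes on either side of the floor, lists by role, genes called in all 4 pairs that cross the arms, and KRAB co-repressors. The genes and lists were chosen with earlier results of these data known. Alternatives were DESeq2 1.42.0, median-ratio size factors, no filter, a loess offset (span 0.3) on GC content and length, leaving out each library, a pseudocount of 1 TPM, TMM-scaled values, an assumed coefficient of variation (0.2), genes of 1 TPM or more, and other floors. On simulated data, with a spread below that fitted here, the 2 against 2 fit recovered 200 of 200 changed genes with 7 false calls among 15321 genes, and the exact test for DNMT3A against EGFP recovered 200 of 200 with 0 among 18436.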

Additional observations from a re-analysis of the deposited data

Results flagged for a closer look

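The 62 ZNF genes called between the arms were marked because a test of the difference between fusions passed: the effect seen with DNMT3A and DNMT3B differed from that seen with DNMT1 and EGFP in edgeR's quasi-likelihood test. Each arm holds 2 different constructs with 1 library each. Among the genes named by rule, the log2 fold changes of those higher with DNMT3A and DNMT3B were 1.64 for ZNF503, 1.64 for ZNF324, 1.46 for ZNF319, 1.42 for ZNF707, 1.37 for ZNF335, 1.29 for ZNF764, 1.28 for ZNF710, 1.19 for ZNF579, 1.16 for ZNF408, 1.11 for ZNF444, 1.11 for ZNF703 and 1.10 for ZNF282. Smaller values were 0.88 for ZNF274, 0.82 for ZNF622, 0.72 for ZNF202, 0.64 for ZNF131, 0.58 for ZNF346, 0.58 for ZNF410 and 0.45 for ZNF768. Those lower were ZNF664 at -0.78, ZNF704 at -0.86, ZNF106 at -0.66, ZNF561 at -0.75 and ZNF260 at -0.80. The samples are too few per group for a search for outlying libraries.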

How the results depend on the processing

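The count of 62 ZNF genes called between the arms was 47 without the filter, 62 with median-ratio size factors, 66 with the GC and length offset and 80 with DESeq2 (5.43%, 11.1%, 14.3% and 11.1% of all genes), and 52 to 66 with other floors; leaving out 1 library gave 3 (without DNMT3A) to 119 (without EGFP), with 0.114% to 24.7% of all genes, where the lone library of an arm is assumed to vary like the others. The median log2 fold change ranged from 0.12 to 0.34 over all of these. Of 24 named genes called, 21 lost the call without DNMT3A, 18 without DNMT3B, 5 without the filter (ZNF131, ZNF260, ZNF346, ZNF703 and ZNF768), and 1 each with DESeq2 (ZNF703) and the offset (ZNF768). Between DNMT1 and EGFP the 8 genes became 5 with a pseudocount of 1 TPM and 4 with TMM-scaled values, and with a coefficient of variation of 0.2 all 5 pairs that had called genes came to 0. With a floor of 10 TPM the genes 2-fold from pUC19 numbered 10 for DNMT1 (16 at 5 TPM) and 4 for EGFP (10 at 5 TPM), in a list of 183 genes in place of 293. No count, median or called gene named changed direction, but genes not called did with 1 library left out: ZNF638, at 0.037 with all, ranged from -0.049 to 0.13 (lowest without DNMT1), ZNF217, at 0.018, from -0.27 to 0.37 (below 0 without DNMT1 and, at -0.080, without DNMT3B), ZNF326, at 0.13, from -0.043 to 0.29 (lowest without DNMT3A) and ZNF24, at -0.22, from -0.54 to 0.20 (highest without EGFP) (log2 fold change). The cause of these shifts was not tested. No paired analysis was possible because each group is 1 library.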
